A study of Drosophila melanogaster and Drosophila melanogaster
Drosophila virilis and Drosophila virilis with 9 samples.

Results

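The mitochondrial ribosomal protein genes of *Drosophila melanogaster* are the nuclear genes for the protein part of the ribosome inside mitochondria. They were taken by name, as every *D. melanogaster* gene of the single-cell tables whose symbol starts with mRpL (large subunit) or mRpS (small subunit). This gave 72 of 15600 genes, 46 of the large and 26 of the small subunit, and no measured value entered the choice. All 72 were found by symbol in the BDGP6.54 annotation, 12 on chromosome arm 2L, 11 on 2R, 17 on 3L, 21 on 3R and 11 on X.

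Mitochondria keep a small genome of their own, which codes for a few core subunits of the respiratory chain and for the RNAs needed to make them. The ribosome that reads it is assembled from RNA of that genome and from proteins that are encoded in the nucleus, made in the cytoplasm and imported. In *Drosophila*, the egg is loaded with maternal mitochondria and maternal RNA, and pole cells, the founders of the germ line, form early at the posterior end. Loss of function in genes of this class, such as *tko*, slows growth and development of the fly.

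The measurements came from stage 6 embryos, at the start of gastrulation, collected over 1 h and aged for 2 h 30 min. Drop-seq encloses dissociated cells with beads that carry a barcode per cell, and counts mRNA molecules by their unique molecular identifiers (UMIs). There were 2 mixed-species libraries (replicates 1 and 2), in which *D. melanogaster* cells were run together with cells of a *D. virilis* strain, and 5 libraries of *D. melanogaster* alone (replicates 3 to 7), all fixed in 80% methanol/PBS. A further library was bulk mRNA of intact, unfixed *D. melanogaster* embryos, from 200 ng of RNA, poly(A)-selected and without strand information. Every *D. melanogaster* sample carried the mutations y1 and w1118 and the transgenes P{st.2::Gal4} and P{vnd::dsRED}, so no result below compares genotypes. The labels do not say whether the 7 Drop-seq libraries came from separate embryo collections. Where library was a block, p-values measure how differences within a library varied from library to library. In the comparison of library kinds, they measure the spread between libraries. Either spread may be technical.

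The 7 libraries held 102732563 UMIs in 11329 barcodes, between 8855169 and 21429520 UMIs per library. At least 1000 UMIs with at least 90% of them on *D. melanogaster* genes were found in 7999 barcodes, called cells here, and 5071 of these had at least 3000 UMIs. Only 6 barcodes occurred in more than 1 library. The bulk library had 6608592 reads on genes. Levels are counts per 1000000 UMIs or reads on *D. melanogaster* genes (CPM).

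Together the 72 genes made up 3842 ± 158 CPM (SD, n = 7 Drop-seq libraries), with the lowest library at 3585 CPM and the highest at 4066 CPM. For scale, 91 cytoplasmic ribosomal protein genes made up 357600 CPM, 37 genes of the mitochondrial genome 130570 CPM and 89 nuclear genes of the respiratory chain 14816 CPM. All 72 genes were above 10 CPM in the mean of the libraries, and their means ran from 12.9 to 114 CPM with a median of 52.4 CPM, an 8.80-fold range. The 46 large-subunit genes summed to 2402 ± 108 CPM, with a median gene at 54.1 CPM, and the 26 small-subunit genes to 1440 ± 53.2 CPM, with a median gene at 51.1 CPM (SD, n = 7).

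The highest gene was *mRpS10*, a protein of the head of the small subunit, at 114 ± 9.34 CPM, from 99.99 to 126 CPM over the libraries. It was followed by *mRpS7*, which binds the small-subunit rRNA, at 104 ± 6.84 CPM. The next were *mRpL14* at 91.3 ± 5.33 CPM, *mRpL22*, which lines the exit tunnel of the large subunit, at 90.6 ± 5.83 CPM, and *mRpS9* at 88.4 ± 4.17 CPM. At the low end stood *mRpS23* at 12.9 ± 1.15 CPM and *mRpL38* at 16.7 ± 1.88 CPM. *mRpS29*, the counterpart of the mammalian GTP-binding protein DAP3, had 17.2 ± 1.53 CPM, *mRpL41* 18.6 ± 2.68 CPM and *mRpL20* 18.6 ± 0.967 CPM (all SD, n = 7). The order of the levels was repeated from library to library at its ends: 7 genes were among the highest 10 in each of the 7 libraries, and 8 among the lowest 10. In between, the genes formed a continuum, and of the 71 pairs of neighbours in the order, 66 had means closer than the larger of their SDs. The 5 exceptions were *mRpS10* over *mRpS7*, *mRpS7* over *mRpL14*, *mRpL48* over *mRpL40*, *mRpL3* over *mRpL34* and *mRpL38* over *mRpS23*.

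**Figure D1:**
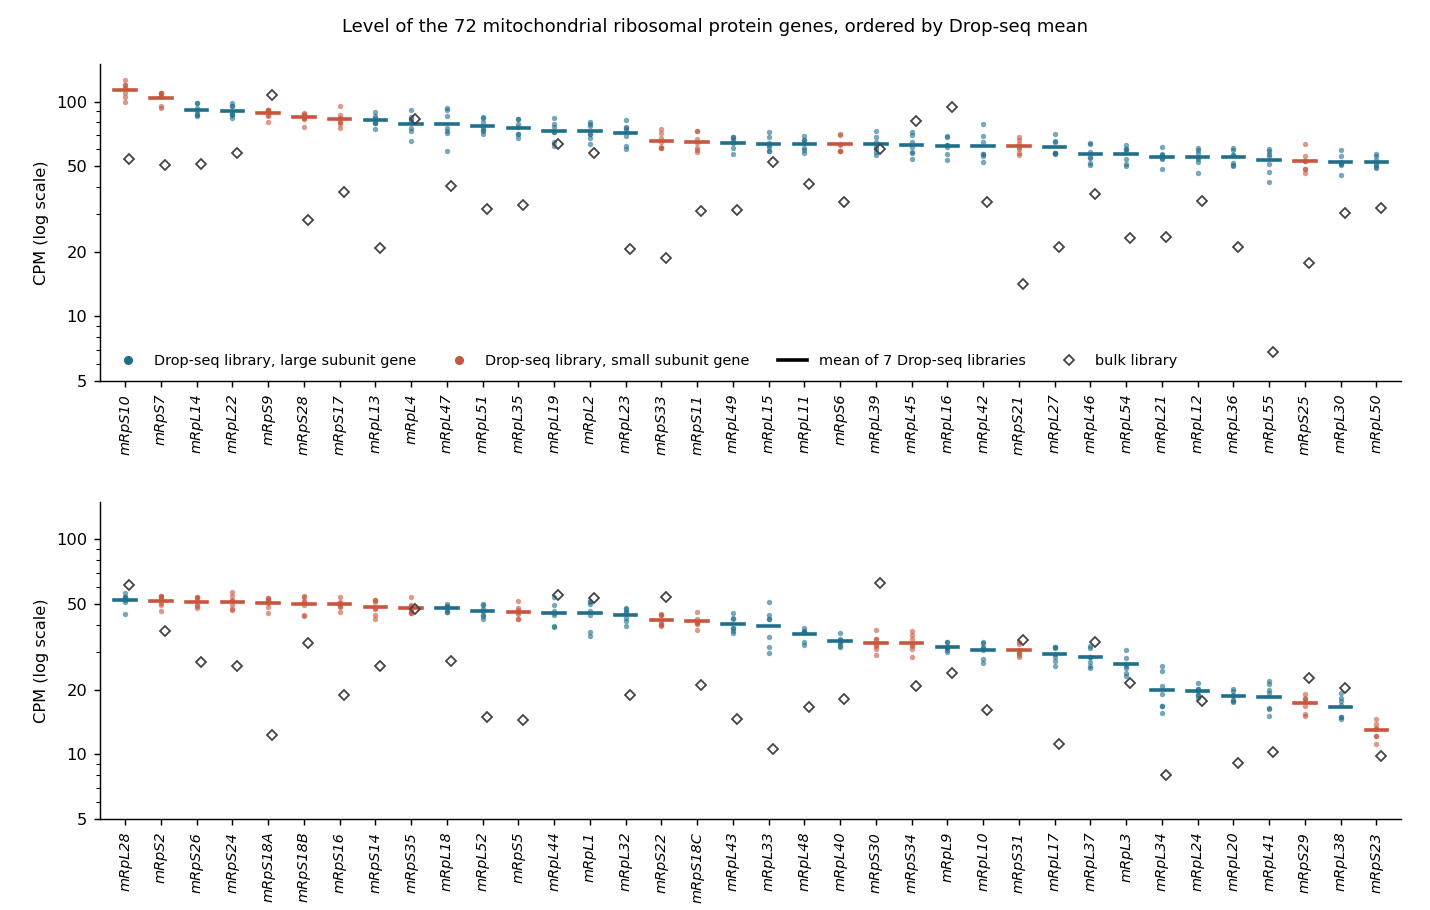
Level of each of the 72 genes (CPM, log scale) in the 7 Drop-seq libraries (points, with their mean as a line) and in the bulk library (diamonds), ordered by the Drop-seq mean from *mRpS10* to *mRpS23*. The libraries of a gene lie close together, while the bulk values lie below the Drop-seq mean for most genes.

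The coefficient of variation between libraries had a median of 7.97% over the 72 genes, from 3.43% to 20.0%. Across the 72 genes, log2 levels of any 2 libraries correlated with r between 0.949 and 0.989 over 21 pairs of libraries; these are correlations across genes of libraries that share the protocol, and genes are not independent replicates. Genes numbered as their bacterial relatives are (up to 36 in the large and 21 in the small subunit, 42 genes) had a median of 55.1 CPM, and the 30 genes with higher numbers, most of them proteins that mitochondria added, 49.8 CPM. The 3 genes named *mRpS18* had like levels, 50.7 ± 2.94 CPM for *mRpS18A*, 49.9 ± 4.24 CPM for *mRpS18B* and 41.5 ± 2.42 CPM for *mRpS18C* (SD, n = 7); in mammals the protein of the name MRPS18A sits in the large subunit.

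A pair of small-subunit genes carry other names and were not among the 72. *bonsai*, the gene for the protein S15, had 82.8 ± 5.86 CPM and *tko*, the gene for S12, which takes part in decoding, 54.3 ± 3.11 CPM (SD, n = 7), both inside the range of the 72. Other genes of mitochondrial gene expression were lower: 9 translation factors had a median of 25.3 CPM, 8 genes for handling mitochondrial RNA 9.74 CPM, and 15 mitochondrial tRNA synthetases 6.42 CPM. Nuclear genes of the respiratory chain had a higher median, 107 CPM. Levels are per UMI at the 3′ end, which does not scale with transcript length, and comparisons between genes are made on that scale.

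Against bulk RNA of intact embryos, most of the 72 genes took a larger share of the counts in Drop-seq cells. They summed to 3842 CPM in the Drop-seq libraries and to 2406 CPM in the bulk library. The median log2 ratio of Drop-seq over bulk, with 1 CPM added to each, was 0.86 for the 72 genes and -0.84 for all 6234 genes with at least 10 CPM in either assay. A ratio over 2-fold higher in Drop-seq was found for 28 of the 72, beside 9.93% of all genes compared, and 0 of the 72 were over 2-fold lower, beside 45.1% of all. With 1 bulk library there is no test; 56 of the 72 were higher than bulk in all 7 Drop-seq libraries and 12 were lower in all 7. In such pooled RNA, fewer cells of a type and less RNA per cell cannot be told apart.

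The largest ratio was that of *mRpL55*, with 53.2 ± 6.57 CPM in Drop-seq (SD, n = 7) and 6.81 CPM in bulk, from 45 reads, a log2 ratio of 2.78 ± 0.18. *mRpS21* followed with 2.04 ± 0.10, *mRpS18A* with 1.96 ± 0.08, *mRpL13* with 1.92 ± 0.08 and *mRpL33* with 1.79 ± 0.28. The reverse was clearest for *mRpS30*, with 33.0 ± 2.89 CPM in Drop-seq and 62.6 CPM in bulk, a log2 ratio of -0.91 ± 0.12. The next lowest were *mRpL16* at -0.60 ± 0.13, *mRpS29* at -0.38 ± 0.12, *mRpL45*, related to the import motor protein Tim44, at -0.37 ± 0.15, and *mRpS22* at -0.35 ± 0.08 (SD over 7 libraries, against the same bulk value).

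Transcript length moved with this ratio. The longest annotated transcripts of the 72 genes had a median of 778.5 nt (from 327 nt for *mRpL34* to 2078 nt for *mRpS30*), against 2100 nt for all genes compared. Spearman's rho between length and log2 ratio was -0.70 across the 72 genes and -0.65 across 6158 genes with a length. As background, bulk reads come from the whole length of a transcript, and Drop-seq counts its 3′ end. Among 1694 genes with a length between 484 and 1409 nt, the band that holds most of the 72, the median log2 ratio was 0.53, with 29.5% over 2-fold higher and 8.91% over 2-fold lower. Across the 72 genes the rank of the Drop-seq level correlated with that of bulk CPM with rho = 0.54, and with that of bulk reads per unit of transcript length with rho = 0.75. *mRpS5*, at 1422 nt, had a log2 ratio of 1.61 ± 0.10 (SD, n = 7). Its neighbours in length among the 72 were lower, *mRpL38* (1399 nt) at -0.28 ± 0.15 and *mRpS29* (1440 nt) at -0.38 ± 0.12. *mRpL21*, at 1696 nt, had 1.20 ± 0.10 and no close neighbour in length among the 72. Both genes were chosen after their values were seen, and neither was compared with genes of its length outside the 72.

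**Figure D2:**
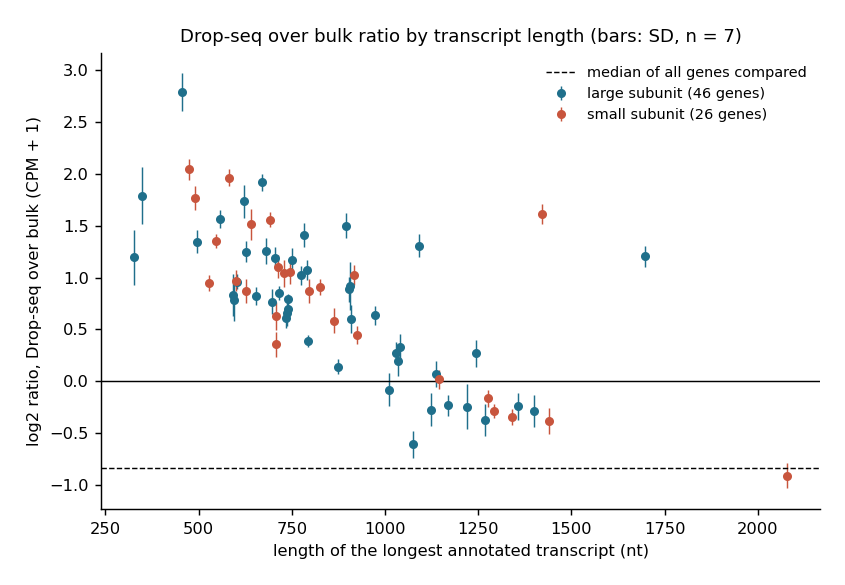
Log2 ratio of Drop-seq over bulk (CPM + 1; mean and SD of 7 Drop-seq libraries) against the length of the longest annotated transcript, for the 72 genes by subunit. Short transcripts stand high and long ones low, from *mRpL55* at 2.78 to *mRpS30* at -0.91, and nearly all genes lie above the dashed median of all genes compared, -0.84.

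In the annotation, 42 of the 72 genes overlapped another gene, 41 of them one on the other strand and 2 one on the same strand. *mRpL13* lies wholly inside *CG10602* on the same strand, and *mRpS14* overlaps *CG32533* there by 30 nt, so the counting of these genes could split or drop reads. In the unstranded bulk library, reads of a gene and of its partner on the other strand cannot be told apart where they overlap. The median log2 ratio was 0.78 for the 41 genes with such a partner and 0.96 for the others. These medians pool overlaps of very unlike size, from 3 nt for *mRpL39* to 9817 nt for *mRpS9*. *mRpS21* overlaps *CG8870* on the other strand by 234 of its 534 nt. The part of overlaps in single ratios, such as the high ones of *mRpS21* and *mRpL13*, was not tested.

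The authors also deposited a pooled table of 1297 selected cells whose column names end in a number from 1 to 11. The meaning of this suffix is not given in the sources used here. Each of these barcodes occurred in exactly 1 of the 7 libraries, and the library counts were used. The suffixes followed cell identity markers in part. Of 7 mesoderm markers, 5 were highest in suffix 4 and 2 in suffix 9. Their sum was 4259 CPM in suffix 4, 4475 CPM in suffix 9 and 2477 CPM in suffix 2. All 10 markers of dorsal ectoderm and amnioserosa were highest in suffix 6. Of 8 markers of the ventral neurogenic ectoderm 4 were highest in suffix 3, 3 in suffix 1 and 1 in suffix 7. Their sum was 1581 CPM in suffix 3 and 3017.5 CPM in suffix 1, which held 4 cells. Of 3 blood markers 2 were highest in suffix 9 and 1 in suffix 2, and posterior markers were divided among suffixes 2, 7, 8, 9 and 11. If the suffixes are clusters made from the same cells, the p-values below are too small, for any gene that helped to define them.

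The summed level of the 72 genes was much alike in all suffixes. It lay between 3581 CPM in suffix 9 (48 cells) and 3984 CPM in suffix 5 (82 cells) among the suffixes with at least 25 cells; suffix 1, with 4 cells, had 2474 CPM from 205 UMIs, and suffix 11, with 7 cells, 3805 CPM. By library, the highest mean was that of suffix 10, at 4205 ± 413 CPM (SD, n = 2). Suffix 4 had 4042 ± 288 CPM (n = 7), suffix 3, which held 632 cells, 3951 ± 165 CPM (n = 7), suffix 6 had 3705 ± 336 CPM (n = 5) and suffix 9 had 3551 ± 391 CPM (n = 5). The ranges of these libraries overlapped, with suffix 9 between 2981 and 3947 CPM and suffix 3 between 3669 and 4123 CPM. Suffix 10 lay between 3913 and 4497.5 CPM and overlapped suffix 9 only at the edge. Each of the 72 genes had at least 1 UMI in every suffix from 2 to 11, and 64 of them had 1 in suffix 1.

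**Figure D3:**
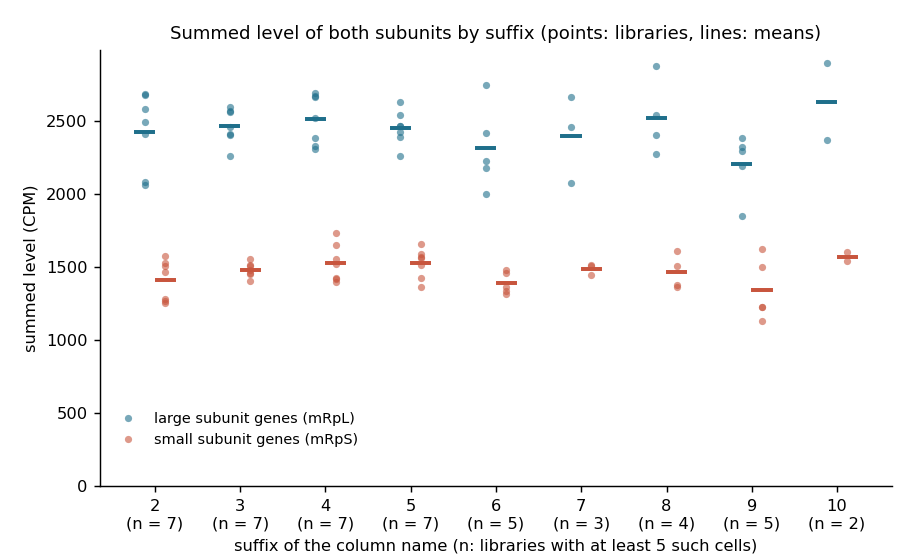
Summed level (CPM) of the 46 large-subunit and the 26 small-subunit genes by suffix, 1 point per library with at least 5 cells of the suffix and a line for the mean. The mean of the large-subunit sum runs from 2209 CPM in suffix 9 to 2633 CPM in suffix 10, and the libraries of even these suffixes overlap.

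Between suffixes 2 to 10, 3 of the 69 genes tested changed in any suffix, beside 29.1% of all 4443 genes tested (edgeR quasi-likelihood test with Benjamini-Hochberg adjustment, FDR 0.05, library as a block). They were *mRpL20* (adjusted p = 0.0146), *mRpL4* (0.0327) and *mRpS21* (0.0381); without replicate 3 the test called 0, and without replicate 2 or replicate 6 it called 1. Set against the mean of the other suffixes one suffix at a time, there were 6 calls. In suffix 5, 1 gene rose, beside 5.63% of all genes that rose and 8.15% called in either direction. In suffix 6, 2 fell (6.21% fell and 16.8% either way), in suffix 7, 1 rose (3.13% and 4.75%), in suffix 8, 1 rose (3.78% and 4.43%), and in suffix 9, 1 fell (4.03% and 10.3%). In suffix 2 (8.46%), suffix 3 (9.70%), suffix 4 (15.3%) and suffix 10 (4.23%) edgeR called 0 of the 69.

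*mRpL4*, a protein of the exit tunnel wall, had 143, 109 and 128 CPM in the 3 libraries of suffix 7, against a median of 74.7 CPM in the 44 other sums, which ran from 29.8 to 163 CPM. All 3 libraries of suffix 7 were above that median and below the highest other sum, and the log2 change was 0.81 ± 0.20 (SE; adjusted p = 0.00702 by edgeR). *mRpL19*, at the face between the subunits, had 121, 94.5, 109 and 88.6 CPM in suffix 8, against a median of 73.4 CPM (20.9 to 132) in the others, a log2 change of 0.53 ± 0.16 (edgeR adjusted p = 0.0307). *mRpL20* in suffix 5 had 11.4, 30.9 and 33.6 CPM as the lowest, median and highest of 7 libraries, against 0, 18.8 and 38.3 CPM in the others. Its groups overlapped over most of their range; the log2 change was 0.79 ± 0.26 (edgeR adjusted p = 0.0429). It was 1.39 without replicate 4 and 0.54 without replicate 6, where the gene was not called. A high level of *mRpL20* was not particular to suffix 5. Its mean was 28.3 ± 6.64 CPM in suffix 9 (SD, n = 5) and 27.2 ± 8.63 CPM in suffix 5 (SD, n = 7). Suffix 2 had 25.2 CPM and suffix 8 had 23.3 CPM, while suffix 7 had 10.2 CPM and suffix 10 had 8.05 CPM. Each suffix weighs alike in the mean of the others, also suffix 10 with 2 libraries.

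Of the genes that fell, *mRpS26* in suffix 9 had 30.8, 31.1, 44.7, 25.3 and 30.0 CPM, against a median of 54.7 CPM (37.1 to 83.7) in the 42 other sums. Of these 5 libraries, 4 were below every other sum, and the log2 change was -0.73 ± 0.20 (SE; adjusted p = 0.0129 by edgeR). *mRpS21* in suffix 6 had 37.3, 47.8, 51.6, 36.6 and 41.0 CPM, against a median of 58.8 CPM (20.0 to 116), a log2 change of -0.57 ± 0.19 (edgeR adjusted p = 0.0274). *mRpS16* in suffix 6 had 14.9, 27.5, 38.7, 62.2 and 10.3 CPM, against 49.8 CPM (20.9 to 73.4), a log2 change of -0.62 ± 0.22 (edgeR adjusted p = 0.0409). The libraries of suffix 6 overlapped the other sums for both genes, and without replicate 6 the log2 change of *mRpS16* was -1.01. These are small counts, from 40 UMIs of *mRpS26* in suffix 9 to 170 UMIs of *mRpL19* in suffix 8. With at least 10 cells per sum 1 of the 6 calls was made, without replicate 3 a single call was made, not among the 6, and without replicate 6 there were 2.

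A split of cells along the dorsal-ventral axis used genes outside the 72. Cells of at least 3000 UMIs were thinned at random to 3000 UMIs, and the ventral gate took those with both *sna* and *twi*, the mesoderm regulators (408 cells), the dorsal gate those with at least 2 of the dorsal genes *tup*, *ush*, *zen*, *Doc1*, *Doc2* and *Doc3* (694 cells). A cell with any UMI of the other gate's genes was left out, and the counts are of the cells that remained. In every library the ventral cells were deeper, with a median of 7361 to 23730 UMIs against 6080 to 14420 UMIs for dorsal cells. Full counts of the gated cells were summed, and results with thinned sums are given at the end. The 72 genes summed to 3910 ± 161 CPM in the ventral gate and to 3849 ± 152 CPM in the dorsal gate (SD, n = 7). Of the 72 genes, 4 changed, beside 24.9% of 5511 genes tested (edgeR quasi-likelihood test with Benjamini-Hochberg adjustment, FDR 0.05, library as a block), 1 higher and 3 lower (11.4% of all genes were higher and 13.5% lower). The median log2 change of the 72 was 0.03 and that of all genes 0.00.

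*mRpL22* had 91.96, 99.4 and 130 CPM as the lowest, median and highest library of the ventral gate, against 62.4, 76.2 and 95.8 CPM in the dorsal gate. It was higher in the ventral gate in 6 of 7 libraries, with ranges that overlapped at the edge, and its log2 change was 0.36 ± 0.09 (SE; adjusted p = 0.00428 by edgeR). *mRpL47*, a protein near the mouth of the exit tunnel, was lower in 7 of 7 libraries, at 72.2 ± 11.8 CPM in the ventral gate and 89.8 ± 12.98 CPM in the dorsal gate (SD), a log2 change of -0.34 ± 0.09 (edgeR adjusted p = 0.00399). *mRpL39* was also lower in 7 of 7, at 57.0 ± 9.71 and 71.9 ± 9.71 CPM in the ventral and the dorsal gate, a log2 change of -0.35 ± 0.10 (edgeR adjusted p = 0.00837). *mRpS10*, the highest of the 72, had 100.6 ± 10.9 CPM in the ventral and 119 ± 19.8 CPM in the dorsal gate, a log2 change of -0.23 ± 0.08 (edgeR adjusted p = 0.0387). The ranges of the ventral and dorsal libraries overlapped for all 72 genes, while 7.69% of all genes had ranges that did not. DESeq2 called 0 of the 72, and so did edgeR without the barcodes of the pooled table; each of the 4 log2 changes had the same sign there.

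The pole cells showed more and larger changes of single genes, in both directions. They were gated by *pgc*, which represses transcription in pole cells, as cells with at least 3 *pgc* UMIs after thinning to 3000 UMIs (177 cells, 9 to 37 per library), and set against 4636 cells with 0 *pgc* UMIs. Of the 72 genes 23 changed, 14 higher and 9 lower, beside 42.4% of 6557 genes tested, 20.5% higher and 21.9% lower (edgeR quasi-likelihood test with Benjamini-Hochberg adjustment, FDR 0.05, library as a block). The share of the 72 that changed, 31.9%, was thus below that of all genes. Their median log2 change was 0.14, beside -0.09 for all genes. The 14 that rose were 8 of the large and 6 of the small subunit, with log2 changes from 0.37 to 1.20, and the 9 that fell were 7 of the large and 2 of the small subunit, from -0.84 to -0.42.

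The gate was checked with other genes of the germ line. *nos*, the posterior determinant, had 219 CPM in pole cells and 0.791 CPM in other cells, *gcl* 131 and 9.80 CPM, and *zpg*, the germ-line gap junction protein, 373 and 18.3 CPM. Genes of other cell types were also present there. Of the mesoderm genes, *twi* had 21.02 to 251 CPM over the libraries of pole cells and 131 to 203 CPM in other cells, and *sna* 30.8 to 114.5 and 102 to 143 CPM. The 7 mesoderm markers summed to 671 CPM in pole cells and 1426 CPM in other cells, with library ranges of 269 to 1330 and 1207 to 1713 CPM. Markers of the ventral neurogenic ectoderm summed to 374 CPM in pole cells and 932.5 CPM in other cells, and those of the dorsal ectoderm and amnioserosa to 451 and 468 CPM. Posterior markers were higher in pole cells, at 610 CPM against 286 CPM in other cells, with ranges of 450 to 858 and 207 to 355 CPM that did not overlap. Blood markers summed to 132 and 81.3 CPM, yolk markers to 28.3 and 16.7 CPM, and head markers to 52.6 and 63.7 CPM. Without the gated cells that held any UMI of the 8 ventral and dorsal gating genes, an alternative chosen after seeing the data, 27 of the 72 were called, 20 of them among the 23. The part of posterior, blood or yolk RNA in the changes below was not tested.

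The strongest rise by adjusted p was that of *mRpL12*, the stalk protein that receives translation factors on the large subunit (3L:8956791-8957584 in BDGP6.54). It had 142, 168, 96.7, 74.998, 81.0, 139 and 131 CPM in pole cells of replicates 1 to 7, against 58.7, 53.9, 51.7, 55.0, 57.7, 44.9 and 51.4 CPM in other cells. All 7 pole values were above all 7 other values, and the log2 change was 1.00 ± 0.15 (SE; adjusted p = 3.04e-06 by edgeR). *mRpL10*, which anchors that stalk (2L:203779-204782), had 52.2, 75.6, 75.7, 41.4, 67.0, 55.7 and 76.0 CPM in pole cells, against 29.9, 29.6, 26.6, 32.8, 32.4, 27.1 and 29.2 CPM in other cells. Again no value overlapped, with a log2 change of 1.02 ± 0.17 (edgeR adjusted p = 1.34e-05).

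*mRpL17* (3L:264779-265932), a protein by the tunnel exit, had 39.1, 63.4 and 82.1 CPM as the lowest, median and highest library in pole cells, against 26.3, 28.4 and 31.1 CPM in other cells. The libraries did not overlap, and the log2 change was 0.93 ± 0.17 (SE; adjusted p = 6.64e-05 by edgeR). *mRpL24*, likewise by the tunnel exit (2L:4944256-4945361), had 23.7, 37.8 and 76.6 CPM in pole cells, against 18.0, 18.2 and 22.0 CPM in other cells. It too had no overlap, but rested on 95 UMIs in pole cells, with a log2 change of 0.94 ± 0.22 (edgeR adjusted p = 0.000883).

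In the small subunit, *mRpS5*, which lines the path of the mRNA (3L:24537236-24543534), had 62.7, 86.6 and 109 CPM as the lowest, median and highest library in pole cells, against 41.0, 45.1 and 49.2 CPM in other cells. Its libraries did not overlap, and the log2 change was 0.87 ± 0.14 (SE; adjusted p = 9.04e-06 by edgeR). *mRpS23*, the lowest of the 72 over all cells (2L:13834250-13835072), had 16.8, 34.8 and 52.2 CPM in pole cells, against 10.7, 12.3 and 13.2 CPM in other cells. It had the largest log2 change of the 72, 1.20 ± 0.26, from 77 UMIs in pole cells (edgeR adjusted p = 0.000364), and its pole libraries fell into 4 at 34.8 CPM and above and 3 below 18 CPM, all above the other cells.

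The clearest decreases were in both subunits. *mRpL47* (3R:9514822-9515908) had 29.8, 53.1 and 76.0 CPM as the lowest, median and highest library in pole cells, against 60.3, 76.1 and 93.2 CPM in other cells. It was lower in 7 of 7 libraries although the ranges overlapped, with a log2 change of -0.64 ± 0.15 (SE; adjusted p = 0.000776 by edgeR). *mRpL22* (X:16783933-16785092) had 43.1, 74.6 and 83.6 CPM in pole cells, against 85.1, 89.7 and 99.5 CPM in other cells, without overlap and with a log2 change of -0.59 ± 0.14 (edgeR adjusted p = 0.00122).

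*mRpS2*, a protein of the small-subunit body (2L:4849439-4850419), had 21.02, 34.8 and 52.2 CPM in pole cells, against 48.1, 54.6 and 57.8 CPM in other cells. It was lower in 6 of 7 libraries, with a log2 change of -0.72 ± 0.17 (SE; adjusted p = 0.00108 by edgeR). *mRpS25*, a small-subunit protein without a bacterial relative (X:14582136-14582982), had 22.3, 37.3 and 43.9 CPM in pole cells, against 47.6, 52.2 and 67.7 CPM in other cells, without overlap and with a log2 change of -0.69 ± 0.17 (edgeR adjusted p = 0.00185). With a gate of at least 2 *pgc* UMIs *mRpL47* and *mRpS25* were not called (edgeR adjusted p = 0.122 and 0.151; over all alternatives each kept its sign), and with sums of thinned counts *mRpS2* was not (0.146).

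**Figure D4:**
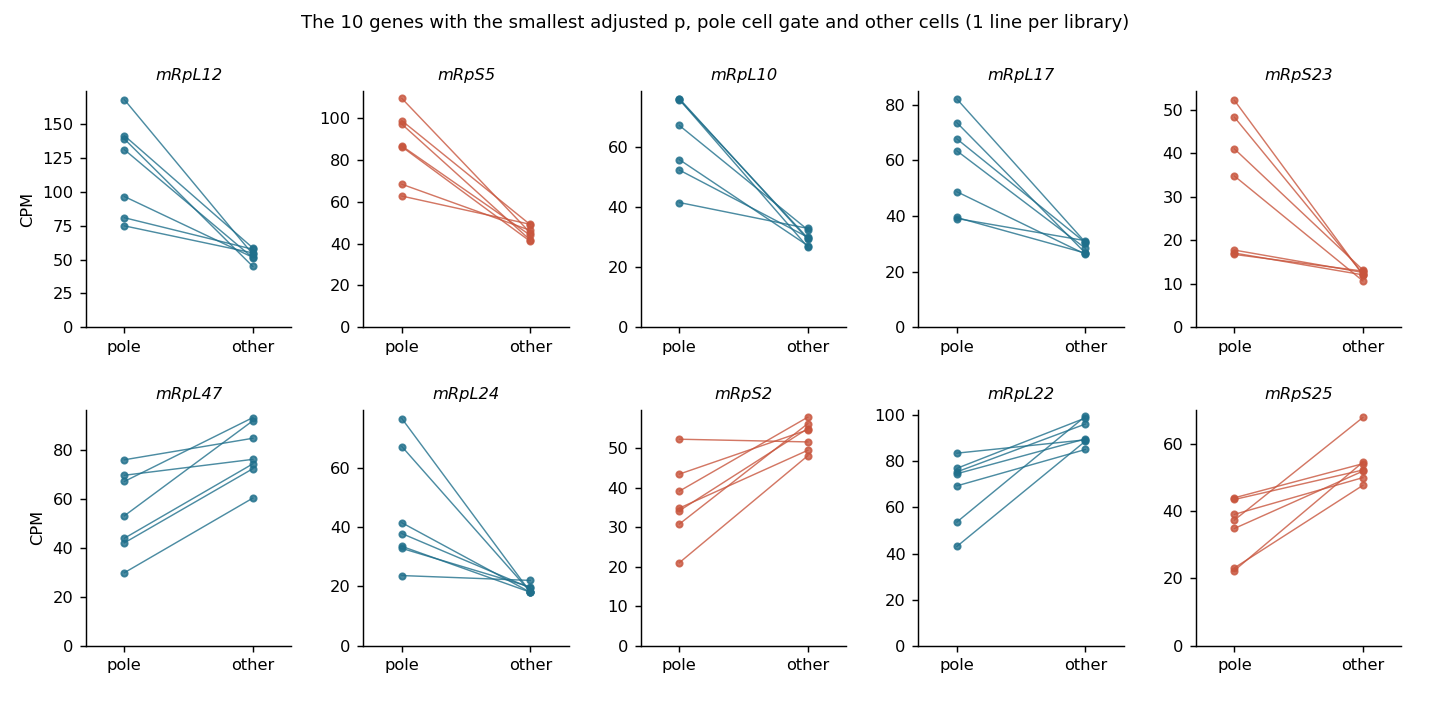
Level (CPM) in the pole cell gate and in other cells of each of the 7 libraries (1 line each), for the 10 genes with the smallest adjusted p. Lines slope down to the other cells for *mRpL12*, *mRpS5*, *mRpL10*, *mRpL17*, *mRpS23* and *mRpL24*, and up for *mRpL47*, *mRpL22* and *mRpS25* in 7 of 7 libraries and for *mRpS2* in 6 of 7.

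The pole libraries did not overlap those of the other cells for 10 of the 72 genes (13.9%), 7 higher and 3 lower, beside 15.9% of all genes tested. All 10 were among the 23 called. Of the 14 that rose, 11 were higher in 7 of 7 libraries, and of the 9 that fell, 4 were lower in 7 of 7. The 14 had a median transcript length of 793.5 nt and a median level of 34.6 CPM over all cells, the 9 had 924 nt and 52.7 CPM, and the 49 not called 739 nt and 55.0 CPM. Of the 14, 9 bear bacterial numbers, of the 9, 3 do, and of the 49 not called, 30 do, beside 42 of all 72. On the X chromosome lay 2 of the 14, 3 of the 9 and 6 of the 49, beside 11 of all 72. Among the paralogs, *mRpS18A*, *mRpS18B* and *mRpS18C* did not pass the test.

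**Figure D5:**
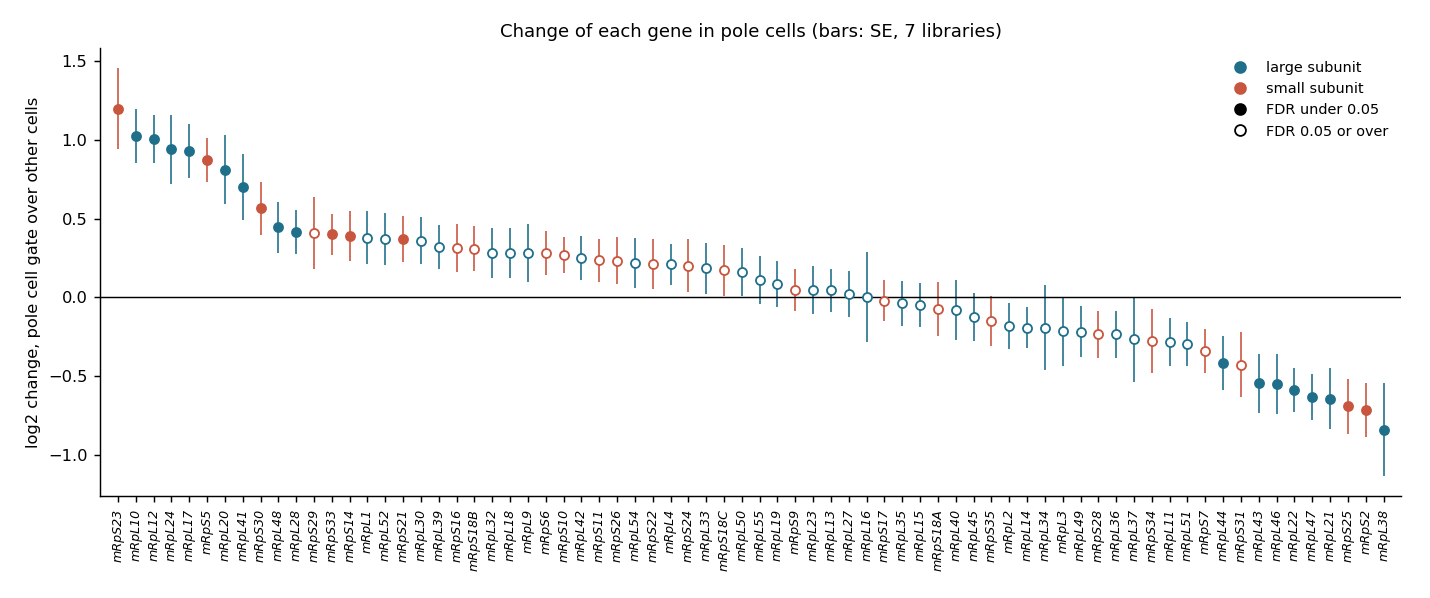
Log2 change of each of the 72 genes in the pole cell gate over other cells (edgeR, SE bars, 7 libraries), ordered by size; filled points passed an FDR of 0.05. The changes run in an unbroken series from *mRpS23* at 1.20 to *mRpL38* at -0.84, with genes of both subunits at either end.

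The sum over all 72 genes was higher in pole cells, at 4398 ± 217 CPM, against 3849 ± 141 CPM in other cells (SD, n = 7). The lowest pole library, 4155 CPM, was above the highest library of other cells, 4004 CPM, and the ratio within a library was 1.14 ± 0.05. Mitochondrial-genome genes took less of the UMIs in pole cells on average, 119440 ± 13740 CPM against 129480 ± 12013 CPM in other cells. Their library ranges, 102110 to 133680 and 110770 to 143150 CPM, overlapped over most of their extent. Cytoplasmic ribosomal proteins summed to 356870 CPM against 359360 CPM. Of 86 of these genes tested by edgeR, 26 (30.2%) were lower in pole cells and 0 higher, beside 21.9% of all genes lower. However, edgeR scales the sums by a trimmed mean of log ratios (TMM), so its log2 changes are not those of plain CPM. On its scale the median log2 change was -0.11 for cytoplasmic ribosomal proteins and -0.09 for all genes tested. The part of this scaling in the calls was not tested. Computed over the UMIs outside the mitochondrial-genome and cytoplasmic ribosomal protein genes, the 72 genes had 8402 ± 420 CPM in pole cells and 7538 ± 412 CPM in other cells. This is a ratio within libraries of 1.12 ± 0.07 that was above 1 in 7 of 7 libraries. The large subunit summed to 2717 ± 141 CPM in pole cells and 2407 ± 96.9 CPM in other cells, the small subunit to 1681 ± 113 and 1443 ± 51.5 CPM. A higher sum was not particular to the 72 genes. Nuclear respiratory chain genes summed to 17338 ± 703 CPM in pole cells and 14782 ± 563 CPM in other cells. Import genes summed to 1661 ± 83.3 and 1214 ± 62.6 CPM (SD, n = 7). For both lists the lowest pole library, 16201 and 1551 CPM, was above the highest library of other cells, 15455 and 1316.5 CPM.

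Of the companions of these genes, *tko* rose in pole cells, with 94.6 ± 26.6 CPM against 52.3 ± 4.06 CPM in other cells (SD, n = 7), which is 0.71 ± 0.14 on the log2 scale (SE, edgeR adjusted p = 0.000127). *bonsai* had 86.4 ± 16.99 CPM in pole cells and 83.1 ± 5.402 CPM in other cells and did not pass the test (edgeR adjusted p = 0.805). Among 9 mitochondrial translation factors 3 rose and 1 fell (44.4%), beside 42.4% of all genes that changed, 20.5% higher and 21.9% lower. Among 63 nuclear respiratory chain genes tested 17 rose and 4 fell (33.3%), a share below that of all genes. Of 8 import genes tested, 6 rose and 0 fell (75%). Of 25 mitochondrial-genome genes tested, 9 fell and 0 rose (36%), with a median log2 change of -0.20. The rRNA of the large mitochondrial subunit, *mt:lrRNA*, had 72510 CPM in pole cells and 79280 CPM in other cells. Its log2 change was -0.23 ± 0.05 on edgeR's TMM scale, which is not that of plain CPM (edgeR adjusted p = 0.000999).

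No gene of the 72 passed the test between *D. melanogaster* cells of the mixed-species and of the single-species libraries. edgeR's quasi-likelihood test called 0 of the 72, beside 0.00% of 8183 genes tested, with 0 of the 72 at an unadjusted p under 0.05, and DESeq2 also called 0. The smallest p were those of *mRpL47*, with 58.9 and 72.6 CPM in the 2 mixed-species libraries and a median of 85.5 CPM (71.7 to 92.9) in the 5 single-species libraries, *mRpL27*, with a log2 change of 0.23 ± 0.12, and *mRpS25*, with 0.24 ± 0.13 (SE; edgeR adjusted p = 0.967 for each). The design of 2 against 5 libraries limits what could be detected. In the mixed-species libraries, UMIs of the 72 *D. melanogaster* genes were also counted in *D. virilis* cells. After thinning to 3000 UMIs, a *D. virilis* cell held on average 0.316 (replicate 1) and 0.158 (replicate 2) of these UMIs. A *D. melanogaster* cell held 11.5 and 10.9. Whether the UMIs in *D. virilis* cells came from stray RNA was not tested.

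Between single cells, the counts of each gene had a variance close to their mean. Mean counts at 3000 UMIs per cell were low, from 0.0354 for *mRpS23* to 0.322 for *mRpS10*. At such means a variance-to-mean ratio near 1 cannot show that the levels varied little. In 5071 cells thinned to 3000 UMIs, a gene of the 72 was detected in 3.36% to 26.5% of cells, with a median of 13.4%, and its variance-to-mean ratio lay between 0.983 and 1.15, where counting alone gives about 1. Excess variation is that ratio minus the median ratio of the genes nearest to it in mean. Its median was -0.0143 over the 72 genes and 0.00416 over all 5483 genes with at least 0.02 UMI per cell. It was positive for 23 of the 72, 31.9%, and for 53.1% of all genes. None of the 72 (0) was in the top 10% of all genes by excess variation, and 12 were in the lowest 10%.

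The genes with most excess variation were *mRpL10*, at 0.0877, *mRpS18B*, at 0.0622, and *mRpL54*, at 0.0534. Those with least were *mRpS35*, at -0.0881, *mRpS7*, at -0.0800, and *mRpS9*, at -0.0758. *mRpL10* was also among the genes that were higher in pole cells; the part of pole cells in its excess variation was not tested.

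Summed per cell, the 72 genes gave 10.98 ± 0.414 UMIs of 3000 (mean and SD over 7 libraries of the mean per cell), from 9 to 10 different genes in the median cell. The lowest cell of a library had 1 to 3 UMIs and the highest 23 to 28, and no cell (0) lacked all 72. The variance of the sum over its mean was 1.455 ± 0.11, which leaves a coefficient of variation between cells of 20.2% ± 2.24 beyond counting. By the same measure, nuclear respiratory chain genes varied by 14.6%, cytoplasmic ribosomal proteins by 13.7%, import genes by 27.6% and mitochondrial-genome genes by 38.6%. Across the cells of a library, the sum of the large-subunit genes correlated with that of the small-subunit genes with r = 0.158 ± 0.064, and the sum of all 72 with the respiratory chain genes with r = 0.246 ± 0.043 (mean and SD over 7 libraries of 326 to 1055 cells). Counting noise in such sparse counts lowers these correlations, and the cells share a library and a fixed total. The values therefore do not show how closely the levels moved together.

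Cells rich in mitochondrial-genome RNA held fewer UMIs of the 72 genes. The 2 sums correlated across cells with r = -0.395 ± 0.059, but with a fixed total a large component lowers all others. Cells were therefore thinned to 2500 UMIs outside the mitochondrial genome and split into 3 equal parts by the share of that genome, a split chosen after seeing the data. The cells with the highest share, where it averaged 20.9% of UMIs, held 9.75 ± 0.465 UMIs of the 72 genes, against 11.6 ± 0.644 in the cells with the lowest share, where it averaged 9.96% (SD, n = 7 libraries). The ratio of high over low share was 0.843 ± 0.040 and below 1 in 7 of 7 libraries, while for the nuclear respiratory chain genes it was 1.03 ± 0.03. Depth moved with the share: the median cell had 6736 UMIs at high and 18230 UMIs at low share, and its part in the ratio was not tested.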

How the data were processed

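Per the submitters' processing notes, STAR, HTSeq and the build BDGP6 were used, with no versions given in the sources used here. As deposited, the single-cell values are unscaled UMI counts and the bulk values unscaled read counts of genes, from which 5 rows that name no gene (56.0% of its reads) were left out. The pooled table's barcodes were each matched to 1 library. Of 1297, 565 differed there in at least 1 gene count, so library counts were used.

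Cells needed at least 1000 UMIs, 90% of them on *D. melanogaster* genes, and no doublet caller was run. Thinning drew 3000 UMIs per cell with a fixed seed. UMIs were summed per library and suffix (at least 5 cells) or gate (at least 5 cells, 3 for pole cells) and tested two-sided with edgeR 4.0.16 in R 4.3.3 (TMM, filterByExpr, quasi-likelihood F test, library as a block outside the comparison of library kinds, Benjamini-Hochberg over all genes tested), and with DESeq2 1.42.0 as an alternative. SEs come from the F statistic. Simulated counts with known changes tested the scripts. The depth of 8855169 to 21429520 UMIs per library limits precision. Lengths, positions and overlaps come from the BDGP6.54 annotation, which may differ from the one used for counting.

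Named are up to 10 genes per comparison by adjusted p, the 5 highest and lowest levels and bulk ratios, and the 3 with most and least excess variation. The members and lists were chosen with earlier results of these data known. *D. virilis* bulk counts were not used.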

Additional observations from a re-analysis of the deposited data

How the results depend on the processing

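Alternatives were DESeq2, no filter on low counts, no replicate block, other cell or gate limits, sums of thinned counts, and leaving out each library in turn. The summed level (3805 to 3885 CPM without 1 library), the median Drop-seq over bulk log2 ratio (0.84 to 0.87) and the median excess variation (-0.0212 to -0.0125) kept their direction throughout. In pole cells, 16 to 26 of the 72 genes were called without 1 library in turn, and 15 with sums of thinned counts, 12 of them among the 23. Of the 23 genes, 9 were called under every alternative in which they were tested, namely *mRpL10*, *mRpL12*, *mRpL17*, *mRpL20*, *mRpL22*, *mRpL24*, *mRpS5*, *mRpS23* and *mRpS30*. Without the replicate block 27 were called, 22 of them among the 23.

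Calls in the other comparisons were fewer and less stable. Between the ventral and dorsal gates, 3 to 6 genes were called without 1 library in turn, 0 with DESeq2, 0 without the barcodes of the pooled table, 1 with thinned sums and 2 without the replicate block. For any suffix, 0 to 4 genes were called without 1 library in turn (0 without replicate 3, 1 without replicate 2 or replicate 6), and for single suffixes 1 to 8 (1 without replicate 3, 2 without replicate 6) and 1 with at least 10 cells per sum; the causes were not tested. None of these calls (0 of 6 between suffixes, 0 of 4 between gates) was made under every alternative. With thinned sums no gene of the 72 passed the filter between suffixes, so that alternative gave no value. No sign of a called gene reversed. Depth limits these calls: a called gene had 26 to 285 UMIs in pole cells and 40 to 170 UMIs in its suffix.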
